A study of Mus musculus with 100 samples.

Results

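Transcription factors divide the embryonic neural tube into stacked zones of dividing progenitors, and 10 of them are described here: Dbx1, Dbx2, Pax6, Pax7, Nkx2-2, Nkx6-1, Nkx6-2, Irx3, Msx1 and Olig2. They are 10 of 23109 genes in the expression tables. They are known zone factors, chosen by their levels in embryos and in neural cultures at day 8 with the differences between genotypes there already known. Those differences are therefore a description, with no p-value. Members past the threshold in them are counted only to be set beside the share of all genes, and these counts support nothing. The other comparisons were tested.

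Sonic hedgehog (Shh) spreads from the notochord and floor plate below, BMP and Wnt proteins spread from the roof plate above, and the balance of the signals sets which factors a progenitor makes. Neighbouring factors repress each other, which sharpens the borders between zones, and each zone then makes its own kind of neuron. From ventral to dorsal, Nkx2-2 marks the zone of V3 interneurons (p3), Olig2 the zone of motor neurons (pMN), Nkx6-1 and Nkx6-2 the ventral zones more broadly, and Dbx1 the zone of V0 interneurons (p0), with Dbx2 reaching further on each side. Irx3 sets the dorsal border of the motor neuron zone, Pax6 is made broadly between the extremes, Pax7 marks the dorsal tube, and Msx1 the roof plate and the dorsal zones beside it. Several are also made elsewhere: Pax7 in the dermomyotome of the somites, Msx1 in limb and pharyngeal arch mesenchyme, Pax6 in the eye, and Nkx2-2, Nkx6-1 and Pax6 in the pancreas.

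The study profiled poly(A)-selected RNA of mouse embryonic stem (ES) cells, their derivatives and whole embryos that carry an allele called KI of Mll4 (Kmt2d), which with Mll3 (Kmt2c) encodes histone H3 lysine 4 methyltransferases of enhancers. What KI stands for is not spelled out in the labels, and the gene's transcript level does not test it. Of 100 samples, 37 RNA libraries in 18 groups were used. The other 63 were not analysed here. All cultured cells lacked Mll3 (Mll3-/-) and were either Mll4flox/flox, called flox here, or Mll4KI/KI, called KI, the latter as 2 clones numbered 27 and 48. They were ES cells at day 0, embryoid bodies at days 4 and 10 (1 flox library and both KI clones on each day), neural cultures from aggregates treated with 5 µM retinoic acid, taken as progenitors on day 8 and as neurons on day 16 (2 flox and 2 KI libraries on each day), trophectoderm-like cells at day 6 of induced CDX2 expression, and extraembryonic endoderm-like cells at day 5 in 0.1 µM retinoic acid with activin A (2 flox and 2 KI libraries of each). All embryos were Mll3flox/KI with Sox2-Cre, a transgene that recombines in the epiblast and so in the embryo proper. Those called KI were Mll4flox/KI and those called control were Mll4flox/+, with 3 of each genotype at E8.5 and at E9.5. Nothing in the labels says whether cultures of 1 genotype were grown separately, so p-values may measure only technical spread.

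Libraries held 18.9 to 59.9 M reads in the genes counted, the neural cultures 39.0 M or more. Levels below are counts per M reads (CPM), scaled for library composition, from the transcript with most reads. A gene is called changed in a comparison at an adjusted p under 0.05 by edgeR's quasi-likelihood test over all genes. A count of 3 reads, taken as the floor of detection, stood for 0.0501 to 0.159 CPM, and intervals and floors cover counting error only. Kmt2d was read at 144 to 343 CPM in the cultures and 141 to 212 CPM in the embryos, and Kmt2c at 28.6 to 107 CPM in cultures labelled Mll3-/-. The part of either gene that each allele lacks is not given, so these levels check no label. The 12 neuronal markers summed to 5557 to 5770 CPM in flox cultures labelled neurons against 2180 to 2191 CPM in flox progenitors. In the cells labelled extraembryonic endoderm, 8 markers of that lineage summed to 902 to 925 CPM in flox but 226 to 234 CPM in KI, where Ttr and Apoa1 had 0 reads.

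The start-site regions of Dbx1, Olig2 and Nkx2-2 are shown because these 3 members had the largest differences between genotypes in embryos or in progenitors. RefSeq gives 11 regions for the 10 members, Pax6 having 2, on build GRCm38.p6, while the expression tables were made on mm9 per the submitters' processing notes. Each region is 300 bases, 250 before the start and 50 after it, written 5′ to 3′ along the gene. Capitals mark CCACCC, the core of the site bound by GLI factors of the Hedgehog pathway, or TATAAA, the TATA box, on either strand.
Dbx1 (chr7:49636786-49637085, minus strand): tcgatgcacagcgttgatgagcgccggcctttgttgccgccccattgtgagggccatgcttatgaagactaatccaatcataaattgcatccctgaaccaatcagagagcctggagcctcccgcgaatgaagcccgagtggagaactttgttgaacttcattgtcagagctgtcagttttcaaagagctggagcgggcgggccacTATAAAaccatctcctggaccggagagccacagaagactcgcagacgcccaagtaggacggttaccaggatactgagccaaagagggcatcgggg
Olig2 (chr16:91225300-91225599, plus strand): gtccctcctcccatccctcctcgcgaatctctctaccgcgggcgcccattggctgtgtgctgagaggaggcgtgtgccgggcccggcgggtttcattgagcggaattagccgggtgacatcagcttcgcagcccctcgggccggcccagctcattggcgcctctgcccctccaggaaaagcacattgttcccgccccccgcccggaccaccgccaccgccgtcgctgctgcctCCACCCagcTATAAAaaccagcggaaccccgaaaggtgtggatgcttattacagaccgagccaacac
Nkx2-2 (chr2:147186353-147186652, minus strand): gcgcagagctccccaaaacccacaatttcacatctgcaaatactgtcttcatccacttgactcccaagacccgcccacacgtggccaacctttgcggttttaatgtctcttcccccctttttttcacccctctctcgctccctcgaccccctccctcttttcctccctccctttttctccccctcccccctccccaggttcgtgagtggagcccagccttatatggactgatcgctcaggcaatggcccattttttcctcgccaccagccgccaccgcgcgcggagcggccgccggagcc
Dbx1 and Olig2 each hold 1 TATAAA, which 13.62% of 32851 regions of this length hold on 1 strand or the other, and none of the other members' regions holds it. CCACCC lies in the regions of Olig2 (1 match), Irx3 (1) and Pax7 (2), against 31.48% of all regions, and in none of the others, Nkx2-2 and Dbx1 included. Neither AGGTCA, a site bound by retinoic acid receptors (16.26% of all regions), nor TAATTA, a core bound by many homeodomain proteins (5.29%), lies in any member's region. The 3 regions shown have 15 (Dbx1), 25 (Olig2) and 17 (Nkx2-2) CpG pairs, against a median of 7 over all regions, and their GC content is 54.0%, 65.0% and 59.7% against a median of 52.7%. These matches describe letters in a short window and say nothing of binding.

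The 10 members were not neural-only readouts in these libraries, and the heat map of group means shows where each was read. Dbx1 had its highest levels in progenitors and embryos, 53.3 ± 0.83 CPM (SD, n = 2) in flox progenitors and 28.8 ± 5.78 CPM (SD, n = 3) in E9.5 control embryos, and stayed at or under 0.231 CPM in each group of ES cells, embryoid bodies, trophectoderm-like and endoderm-like cells. Pax7 was highest in progenitors of both genotypes, the KI clones at 57.9 ± 13.5 CPM and the flox libraries at 47.5 ± 0.03 CPM (SD, n = 2 each), and next highest in E9.5 embryos at 10.5 to 11.9 CPM. Pax6 (126 and 105 CPM) and Irx3 (221 and 239 CPM in flox and KI) were likewise highest in progenitors and next in embryos. Msx1 was highest in E8.5 KI embryos at 154 ± 5.07 CPM, and Nkx6-1 in E9.5 embryos, where KI at 31.2 ± 6.17 CPM and control at 30.5 ± 5.69 CPM did not differ beyond their spread (SD, n = 3 each). Nkx2-2 was low throughout, with a top of 5.33 ± 0.53 CPM in E9.5 controls, and Dbx2 lower still, with a top of 1.93 ± 0.39 CPM there (SD, n = 3 each).

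Olig2 and Nkx6-2 were highest outside the neural tube. Olig2 reached 54.7 CPM in the single flox ES library and 17.98 and 22.0 CPM in the 2 KI ES libraries, with the 24.3 ± 2.99 CPM of E9.5 controls (SD, n = 3) between them. Nkx6-2 stood at 27.1 CPM in flox and 25.0 and 27.6 CPM in KI ES cells, above the 19.2 ± 3.92 CPM of E9.5 controls. More of the Nkx6-2 reads lay on a transcript that RefSeq holds as non-coding, which is the one used here. Reads on the coding transcript came to 79.3 to 87.7% of those in ES cells, 58.0 to 74.3% in embryos and 7.93 to 27.03% in the other cultures, so the level of this gene in differentiated cultures is mostly that of the non-coding transcript. The 2 transcripts can share reads.

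**Figure D1:**
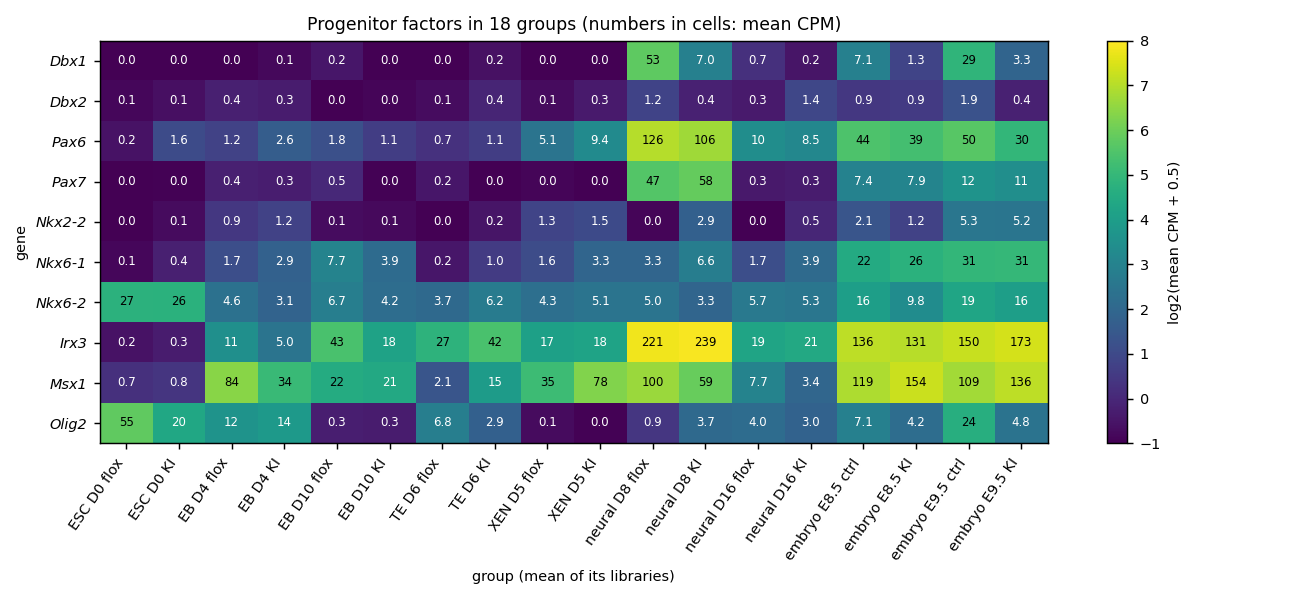
Heat map of the 10 members (rows) in the 18 groups (columns), coloured by log2 of the mean CPM plus 0.5 with the mean CPM printed in each cell, 1 to 3 libraries a group. Pax6, Pax7, Irx3 and Dbx1 peak in neural progenitors or embryos, while Olig2 and Nkx6-2 peak in ES cells at 54.7 and 27.1 CPM.

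Per length of transcript, the scale on which genes can be compared, the authors' RPKM placed Irx3 (52.8) and Msx1 (46.9) highest in E9.5 controls, then Pax6 (14.9), Nkx6-1 (14.2), Dbx1 (11.6), Nkx6-2 (8.43), Olig2 (8.32), Pax7 (2.32), Nkx2-2 (2.17) and Dbx2 (0.709), as means of 3 embryos. Flox progenitors gave the same first 3 places to Irx3 (64.9), Msx1 (35.8) and Pax6 (31.1) but put Dbx1 (17.8) and Pax7 (7.70) above Nkx6-2 (1.80), Nkx6-1 (1.27), Dbx2 (0.378), Olig2 (0.242) and Nkx2-2 (0.0166), as means of 2 libraries. So the ventral factors and the intermediate factor Dbx2 were low in flox progenitors, and Dbx2 was the lowest member in E9.5 controls as well.

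In E9.5 embryos, Dbx1 and Olig2 were the members with the largest log2 fold changes between genotypes when all embryos were kept. Dbx2, on few reads, was close to Olig2 at -2.28, and its value depended on the embryos kept. Dbx1, the p0 factor, stood at 32.5, 31.8 and 22.2 CPM in the 3 controls and at 3.98, 4.28 and 1.57 CPM in the 3 KI embryos. The groups were far apart, with a log2 fold change of -3.14 (SE 0.40). Olig2, the motor neuron progenitor factor, stood at 26.9, 24.9 and 21.0 CPM in controls and 5.43, 5.20 and 3.84 CPM in KI, a log2 fold change of -2.34 (SE 0.19). Each KI embryo was below each control for both genes.

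Pax6 was lower by less in the same embryos. It stood at 53.9, 51.0 and 46.0 CPM in controls and 32.4, 31.6 and 27.03 CPM in KI, a log2 fold change of -0.74 (SE 0.11) without overlap. Dbx2 had few reads: 47, 69 and 40 in the 3 controls and 26, 2 and 2 in KI, or 1.75, 2.37 and 1.66 CPM against 1.01, 0.0800 and 0.0825 CPM. Its log2 fold change of -2.28 (SE 0.72) depended on 1 embryo, and was -4.50 without KI replicate 1. Dbx2 was no longer called without KI replicate 2, KI replicate 3 or control replicate 2.

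The ventral factors other than Olig2, namely Nkx2-2, Nkx6-1 and Nkx6-2, did not share this pattern at E9.5. Nkx2-2, the p3 factor, was at 5.85, 5.36 and 4.78 CPM in controls and 5.74, 6.00 and 3.92 CPM in KI, with overlapping groups and a log2 fold change of -0.04 (SE 0.26). Nkx6-1 overlapped too, at 30.6, 36.2 and 24.8 CPM against 32.4, 36.6 and 24.5 CPM (log2 fold change 0.02, SE 0.16), as did Nkx6-2 (-0.29, SE 0.20). In each of these 3 genes KI replicate 3 was the lowest of the 6 embryos, as it was for Dbx1, Pax6 and Olig2. Without it the log2 fold change of Nkx6-2 was -0.06.

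Of the dorsal factors, Msx1 was higher and Pax7 about level. Msx1 stood at 106, 110 and 110 CPM in controls and 144, 147 and 118 CPM in KI embryos, a log2 fold change of 0.32 (SE 0.08) without overlap. Pax7 ran from 8.19 to 14.5 CPM in controls and from 9.37 to 11.3 CPM in KI, a log2 fold change of -0.18 (SE 0.18). Irx3 was at 136 to 157 CPM in controls and 166 to 177 CPM in KI, and its log2 fold change of 0.20 (SE 0.07) was not called by DESeq2, without a filter on low counts, in a fit of the E9.5 embryos alone or with transcripts summed. In all, 6 of the 10 members were called at E9.5, 2 higher and 4 lower, where 29.5% of all genes were called (14.6% higher and 14.9% lower). The members were picked with this contrast known, so nothing is read from that count.

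**Figure D2:**
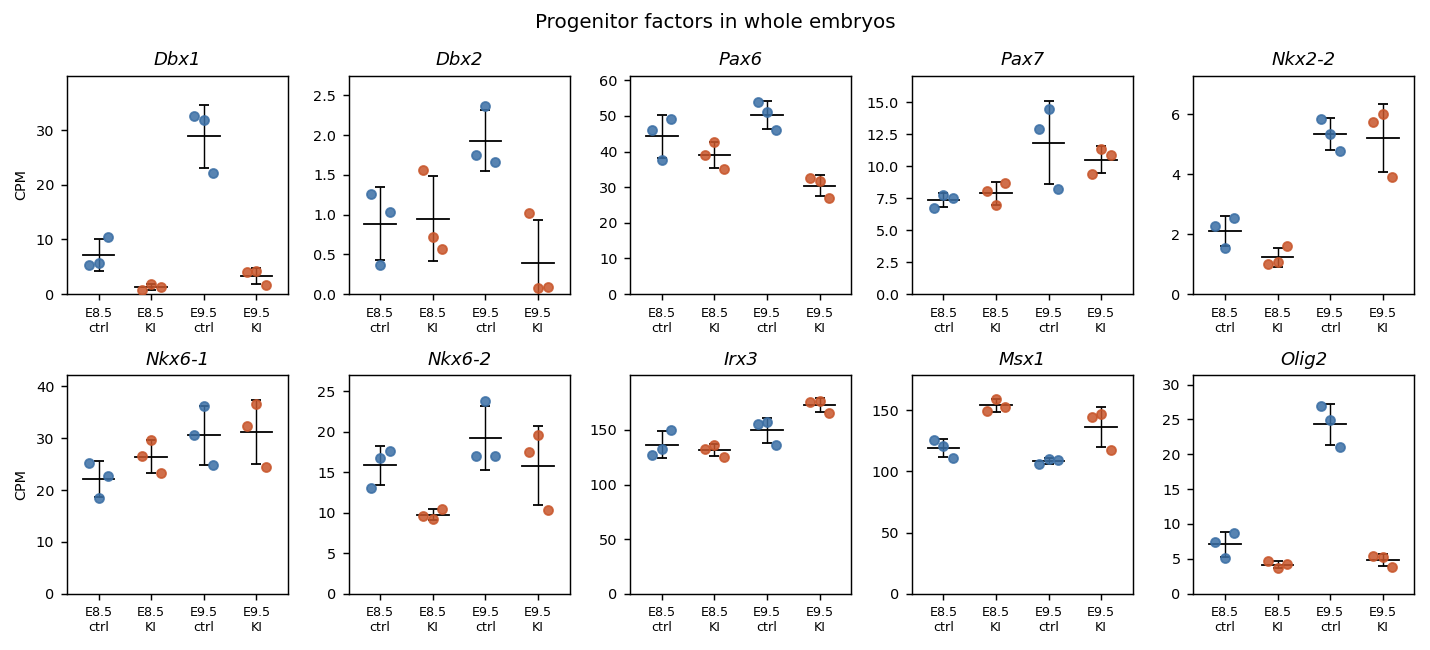
Level of each member in the 12 whole embryos in CPM on linear axes from 0, with 1 point per embryo, a line at the group mean and a bar of 1 SD, by genotype at E8.5 and E9.5. Dbx1 and Olig2 climb between stages in the controls and stay under 5.5 CPM in each KI embryo, while Nkx6-1 and Nkx2-2 overlap between genotypes at E9.5.

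A day earlier the differences were fewer. At E8.5, Dbx1 stood at 5.26, 5.61 and 10.5 CPM in controls and 0.783, 1.80 and 1.30 CPM in KI, a log2 fold change of -2.45 (SE 0.45) with all KI embryos below all controls. Olig2 stood at 7.43, 5.16 and 8.70 CPM against 4.65, 3.69 and 4.19 CPM (-0.76, SE 0.20), and Msx1 at 126, 120 and 111 CPM against 150, 160 and 153 CPM (0.37, SE 0.08), again without overlap. Nkx6-2 also separated the groups, at 13.1, 16.8 and 17.7 CPM against 9.57, 9.23 and 10.5 CPM, with a log2 fold change of -0.70 (SE 0.21) that was not called. Pax6, Pax7, Dbx2, Irx3, Nkx6-1 and Nkx2-2 overlapped between genotypes, with log2 fold changes from -0.77 (Nkx2-2) to 0.26 (Nkx6-1). Between embryos of the same number, which are treated as pairs in the next paragraph, Nkx2-2 was lower in KI in all 3 pairs (1.00 against 2.27, 1.08 against 1.55 and 1.60 against 2.52 CPM). Nkx6-1 was higher in KI in all 3 (26.5 against 25.3, 29.6 against 18.5 and 23.2 against 22.8 CPM). Neither was called with that number as a block (-0.77 and 0.27).

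So 3 members were called at E8.5, Msx1 higher and Dbx1 and Olig2 lower, where 5.46% of all genes were called (3.63% higher and 1.83% lower). Embryos of the 2 genotypes with the same number in their titles deviated together at this stage, and with that number as a block 4 members were called, Nkx6-2 (-0.68) being added. Without KI replicate 3 only Msx1 was called, and without control replicate 3 only Dbx1. These members too were picked with the contrast known.

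Whole embryos mix many tissues, and fewer cells of a type cannot be told apart from less RNA per cell. At E9.5, 9 of 12 neuronal markers were lower in KI, summing to 130 to 136 CPM against 317 to 462 CPM. Of 8 pan-neural progenitor markers, Pax6 among them, 6 were lower and none higher (1167 to 1213 CPM against 1349 to 1669 CPM). Of 10 somite markers, Pax7 among them, 7 were lower (150 to 183 CPM against 279 to 286 CPM), while 6 of 7 heart markers were higher (907 to 1750 CPM against 374 to 496 CPM). Of 10 markers of limb bud and arch mesenchyme, where Msx1 is also made, 4 were higher and 1 lower (562 to 572 CPM against 408 to 465 CPM). Neural crest markers were higher for 4 of 7 (250 to 302 CPM against 177 to 195 CPM), as were trophoblast markers for 4 of 7 (426 to 471 CPM against 151 to 311 CPM) and extraembryonic endoderm markers for 3 of 8 (274 to 376 CPM against 118 to 125 CPM). Of 5 eye markers, 1 was lower, and their sum of 42.2 to 51.7 CPM in KI lay below the 60.8 to 73.1 CPM of controls. Blood markers summed to 579 to 2950 CPM in KI and 3130 to 8644 CPM in controls. Each marker in these lists had reads in at least 1 embryo of each group, and the part of such shifts in the members' differences was not tested.

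At E8.5 the neuronal markers summed alike in both genotypes (119 to 128 CPM in KI, 114 to 130 CPM in controls), with 2 of 12 lower, and the pan-neural markers overlapped (891 to 950 CPM and 775 to 900 CPM). Somite markers did not overlap (149 to 160 CPM against 213 to 280 CPM), nor did mesenchyme markers (494 to 537 CPM against 326 to 472 CPM), neural crest markers (235 to 252 CPM against 198 to 230 CPM), trophoblast markers (756 to 876 CPM against 534 to 671 CPM) or blood markers (114 to 212 CPM against 696 to 1439 CPM).

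Transcript levels of other genes of these pathways follow. They come from all tissues of the embryo and do not measure signalling in the neural tube. Among 6 signals of the axis at E9.5, Bmp4, a roof plate and surface ectoderm signal, was higher in KI (log2 fold change 1.03) and Wnt3a, a roof plate signal, lower (-0.96). Shh itself (-0.47, SE 0.29), Bmp7 (0.22), Gdf7 (-0.41) and Wnt1 (0.16) were not called. Of 6 Hedgehog pathway genes (Gli1, Gli2, Gli3, Ptch1, Hhip and Smo), none was called at either stage. Their log2 fold changes ran from -0.20 to 0.49 at E9.5 and from -0.19 to 0.07 at E8.5. At E8.5, Bmp4 was higher (0.96) and Wnt1 (-0.58) and Wnt3a (-1.17) lower, while Shh (-0.08), Bmp7 (0.33) and Gdf7 (-0.98) were not called. As with the members, these embryo values are a description, since the lists were drawn up with the results known.

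Other genes of the tube at E9.5 were mostly lower where they differed. Of 8 floor plate and roof plate genes, 5 were lower, led by Foxj1 (-1.54), a ciliogenesis factor, and Lmx1b (-1.04). Of 18 other progenitor factors tested, 8 were lower, led by Prdm12 (-2.42), a p1 factor, and the proneural gene Neurog1 (-1.73), and 1 was higher, Msx2 (1.04). Of 22 factors of postmitotic neuron subtypes tested, 9 were lower and 4 higher. Lhx3, needed for motor neurons and V2 interneurons, stood at 0.175 CPM in KI against 4.01 CPM in controls, and Lhx9, of dorsal interneurons, at 1.88 against 13.5 CPM. Gata3 (1.08) and Pax8 (0.94) led the higher ones. In the retinoic acid axis, the synthesis enzyme Aldh1a2 (-1.21) and the binding protein Crabp2 (-0.89) were lower and the degrading enzyme Cyp26c1 (1.15) higher, and Cyp26a1 (-0.21), Cyp26b1 (-0.12) and the receptor Rarb (0.26) were not called.

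At E8.5 fewer of the same genes differed. Ntn1 (-0.51) was the 1 floor plate gene called. Msx2 (0.58) was higher and the proneural gene Neurog1 (-2.23) lower, Isl2 (1.22) and Isl1 (0.86) were higher and En1 (-1.32) and Sim1 (-1.20) lower among the postmitotic factors, and Aldh1a2 (-1.24) and Crabp2 (-0.53) were lower. Of the other retinoic acid genes, Cyp26a1 (-0.23), Cyp26b1 (-0.31), Cyp26c1 (-0.05) and Rarb (-0.16) were not called at this stage.

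The change from E8.5 to E9.5 was tested within each genotype. In controls 5 of 10 members rose and none fell, where 24.2% of all genes were called (12.2% higher and 12.1% lower). The members were picked partly by their levels in these same embryos. Nothing is therefore read from the number or direction of the calls in either genotype, and the adjusted p-values for stage are not independent of that choice. Dbx1 rose from 7.11 ± 2.91 to 28.8 ± 5.78 CPM (SD, n = 3 each), with a log2 fold change of 2.03, SE 0.37 and an edgeR adjusted p of 0.00279 (5.89e-05 to 0.0157 over the alternatives). Olig2 rose from 7.10 ± 1.79 to 24.3 ± 2.99 CPM (1.79, SE 0.19, edgeR adjusted p 1.44e-06, alternatives 1.02e-17 to 2.33e-05). Each E9.5 control was above each E8.5 control for both.

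Nkx2-2 rose in the same embryos by 1.35 (SE 0.27, edgeR adjusted p 0.00106), from 1.55 to 2.52 CPM up to 4.78 to 5.85 CPM. Pax7 rose by 0.70 (SE 0.19, edgeR adjusted p 0.00997), and was not called without E9.5 control replicate 2 (0.0844). Nkx6-1 rose by 0.48 (SE 0.16, edgeR adjusted p 0.0454), with overlapping stages, and was lost on leaving out any of 4 of the 6 embryos (adjusted p 0.0992 to 0.216). Without E9.5 control replicate 2, 3 members were called. Dbx2, Pax6, Nkx6-2, Irx3 and Msx1 passed no threshold, at log2 fold changes from -0.12 (Msx1) to 1.16 (Dbx2, SE 0.67).

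In KI embryos 4 members rose and 1 fell, where 32.5% of all genes were called (15.9% higher and 16.6% lower). Nkx2-2 rose from 1.23 ± 0.32 to 5.22 ± 1.13 CPM (SD, n = 3 each), by 2.08 on the log2 scale (SE 0.28, edgeR adjusted p 2.59e-05, alternatives 3.79e-10 to 0.000336). Irx3 rose by 0.39 (SE 0.07, edgeR adjusted p 0.000341, alternatives 1.73e-05 to 0.00378). These were the calls kept without E8.5 KI replicate 2, which left 2 members. Olig2 was at 4.18 ± 0.48 CPM at E8.5 and 4.82 ± 0.86 CPM at E9.5 in KI, with overlapping stages and no call (0.21, SE 0.20, edgeR adjusted p 0.46).

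The other changes with stage in KI were less stable. Dbx1 rose from 1.29 ± 0.51 to 3.28 ± 1.49 CPM (1.34, SE 0.46, edgeR adjusted p 0.0469), with overlapping stages, and was lost without any of 5 of the 6 embryos (0.0532 to 0.157) and without the count filter (0.0864). Nkx6-2 rose by 0.70 (SE 0.21, edgeR adjusted p 0.0179) and was lost without E8.5 KI replicate 1 or 2 or E9.5 KI replicate 1 or 2 (0.0636 to 0.0973). Pax6 fell by 0.36 (SE 0.11, edgeR adjusted p 0.0158), from 35.2 to 42.6 CPM down to 27.03 to 32.4 CPM, and was lost without E8.5 KI replicate 2 (0.0716) or E9.5 KI replicate 3 (0.0857). Without E8.5 KI replicate 1, 3 members were called. The 2 comparisons with stage together hold the same embryos as the genotype contrasts above, so they are not independent of what was known of those, and whether a change differed between genotypes was not tested.

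In day 8 neural progenitors, made with retinoic acid, Olig2 lay the other way from the embryos, and Nkx2-2 and Nkx6-1, level between genotypes at E9.5, were higher in KI. Nkx2-2 had 2 and 3 reads in the 2 flox libraries and 154 and 125 in the KI clones, or 0.0432 and 0.0548 CPM against 3.32 and 2.44 CPM. That is a ratio of 57.8 with a counting interval of 24.5 to 179 (exact binomial, 95%). Olig2 stood at 0.842 and 0.859 CPM in flox and 3.88 and 3.52 CPM in KI, a log2 fold change of 2.13 (SE 0.18), and Nkx6-1 at 3.22 and 3.36 CPM against 7.76 and 5.40 CPM (1.01, SE 0.20). None of the 3 overlapped between genotypes, though the KI clones differed in Nkx6-1, and all were low beside Pax6, Pax7 and Irx3 in the same libraries.

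Dbx1 and Dbx2 lay the same way as in E9.5 embryos. Dbx1 stood at 53.9 and 52.7 CPM in flox and 9.42 and 4.56 CPM in KI clones 27 and 48, a log2 fold change of -2.92 (SE 0.31). Dbx2 stood at 1.23 and 1.24 CPM against 0.409 and 0.352 CPM (-1.69, SE 0.26). Msx1 was lower in KI here, at 100 and 99.0 CPM in flox against 62.3 and 55.9 CPM (-0.74, SE 0.11), whereas in both sets of embryos it was higher. Neither set of cells was compared with the other in a test.

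Pax6, Pax7 and Irx3 differed little at day 8. Pax6 was at 128 and 125 CPM in flox and 111 and 99.6 CPM in KI (-0.25, SE 0.11), Irx3 at 217 and 225 CPM against 226 and 253 CPM (0.13, SE 0.09), and Pax7 at 47.5 and 47.4 CPM against 48.3 and 67.4 CPM (0.30, SE 0.13). None of the 3 was called. The 2 KI clones were unlike in Pax7, which was called without clone 27 (0.51) and was at 0.04 without clone 48. Nkx6-2 was at 4.79 and 5.12 CPM in flox and 3.40 and 3.21 CPM in KI (-0.57, SE 0.15), and was -2.04 on its coding transcript alone.

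In all, 7 of 10 members were called at day 8, 3 higher and 4 lower, where 19.5% of all genes were called (6.3% higher and 13.2% lower). This contrast too was known when the members were picked, and nothing is read from the count. Without either flox library 6 members were called, Nkx6-2 being lost. Without clone 27, Nkx6-1 was lost (log2 fold change 0.72) and Pax7 gained. The flox libraries at day 8 were the most alike of all replicate pairs, which was not so of the KI clones.

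**Figure D3:**
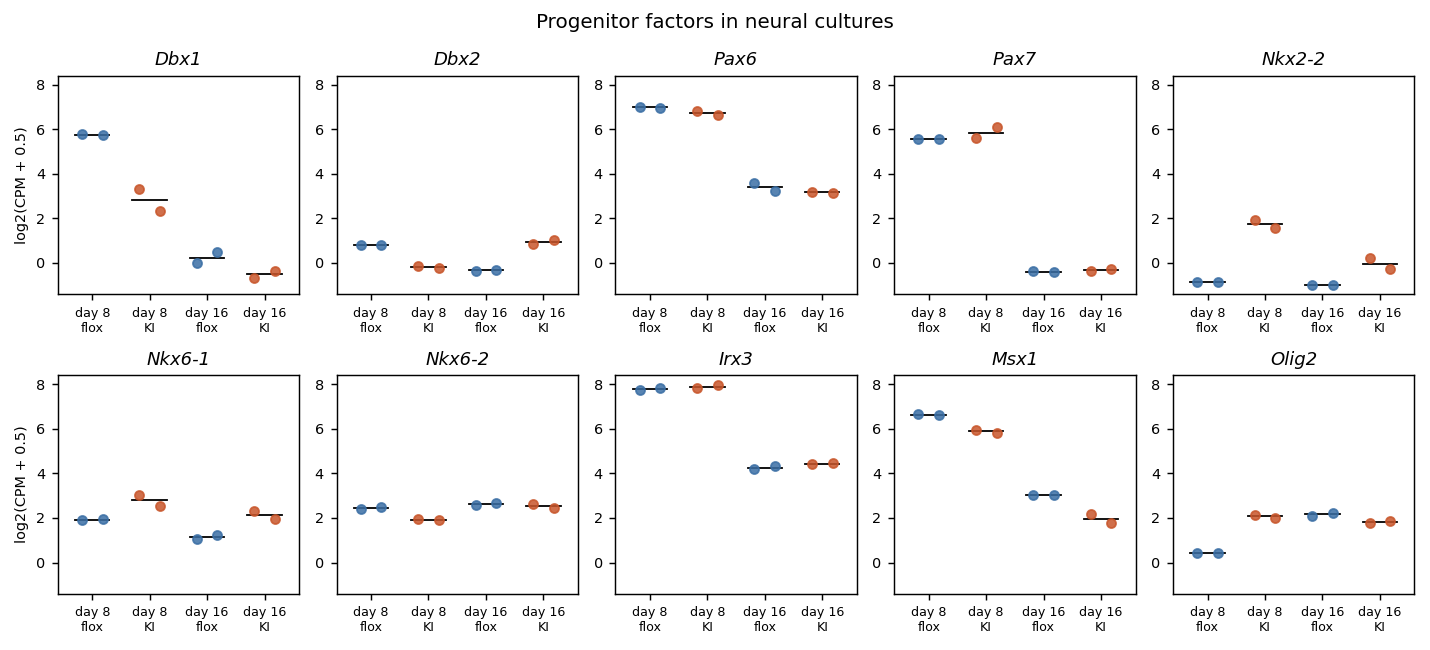
Level of each member in the 8 neural libraries as log2 of CPM plus 0.5, with 1 point per library and a line at the group mean, for flox and KI at day 8 (progenitors) and day 16 (neurons). Nkx2-2 sits at the bottom in both flox groups and above it in KI, Dbx2 and Olig2 change sides between the days, and Pax6, Pax7, Irx3 and Msx1 drop in both genotypes.

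Pathway genes at day 8 are again a description. Shh (0.70), Wnt1 (1.18) and Wnt3a (1.37) were higher in KI and Bmp7 (-0.74) lower, with Bmp4 (-0.40) and Gdf7 (-0.63) not called. Of the 6 Hedgehog pathway genes, 3 were higher, the mediators Gli2 (0.70) and Gli3 (0.65) and the receptor Ptch1 (0.42). Gli1 (0.52), Hhip (0.37) and Smo (0.21) were not called. The floor plate signal Ntn1 was higher, at 178 against 58.3 CPM (1.62), as was Foxj1 (1.14), and the roof plate genes Rspo1 (-3.90) and Lmx1b (-2.02) were among 3 lower of the 8 floor plate and roof plate genes. Of 19 other progenitor factors, 9 were higher, led by Nkx2-9 (2.71), a p3 factor beside Nkx2-2 on the axis, and Msx2 (2.68), and 1 was lower, Neurog1 (-0.61). Of 20 postmitotic factors tested, 5 were higher, led by Tlx3 (2.04) and Gata3 (1.90), and 4 lower, led by Lmx1b and by Evx1 (-1.77), a marker of the V0 neurons that Dbx1-expressing progenitors make.

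Genes that make, degrade or sense retinoic acid differed as well. Aldh1a2 stood at 2.61 CPM in KI against 32.9 CPM in flox (-3.64). The degrading enzymes Cyp26b1 (-2.42), Cyp26a1 (-1.60) and Cyp26c1 (-0.97) were lower too, Rarb, a receptor that is itself a target, was higher (0.41) and Crabp2 (-0.08) was not called. Neuronal markers at day 8 were lower in KI for 10 of 12 (1382 to 1592 CPM against 2180 to 2191 CPM), while pan-neural markers summed to 2443 to 2595 CPM in KI and 2296 to 2338 CPM in flox, with 3 of 8 higher and 2 lower. Neural crest markers were lower for 3 of 7 (64.05 to 75.3 CPM against 126 to 129 CPM) and extraembryonic endoderm markers for 6 of 7 tested (35.2 to 36.5 CPM against 107 CPM in both flox libraries). Blood (1.37 to 1.62 CPM against 11.4 to 11.5 CPM) and pancreatic and foregut markers (74.9 to 79.2 CPM against 110 to 113 CPM) were also lower in sum, as were heart markers (1.01 to 1.04 CPM against 3.33 to 3.54 CPM). Eye (10.8 to 14.6 CPM against 7.92 to 8.63 CPM), somite (291 to 316 CPM against 267 to 270 CPM) and mesenchyme markers (118 to 126 CPM against 109 to 110 CPM) were higher in sum. The part of these shifts in the members' differences was not tested.

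In day 16 neurons the genotypes were tested, and 4 of 10 members were called, where 46.9% of all genes were called (27.1% higher and 19.7% lower). A share of 4 in 10 is near that background. Dbx2 stood at 0.285 and 0.298 CPM in flox and 1.28 and 1.53 CPM in KI, a log2 fold change of 2.29 (SE 0.27, edgeR adjusted p 3.84e-05, alternatives 9.4e-07 to 0.00135). It was higher in KI at day 16 and lower at day 8. Nkx6-1 stood at 1.59 and 1.87 CPM against 4.41 and 3.33 CPM (1.20, SE 0.22, edgeR adjusted p 0.00105, alternatives 3.94e-05 to 0.018), in the same direction as at day 8.

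Nkx2-2 had 0 reads in both flox neuron libraries and 30 and 16 in the KI clones, or 0.649 and 0.321 CPM. Against a floor of 3 reads per flox library this is at least 7.02-fold higher. The gene passed the filter on low counts only through the KI libraries, where it is high. Its call (edgeR adjusted p 0.000269) is therefore no added support, and the difference rests on the reads given. Msx1 was lower in KI, at 7.72 and 7.73 CPM in flox against 3.98 and 2.91 CPM (-1.14, SE 0.14, edgeR adjusted p 5.22e-05, alternatives 2.39e-12 to 0.00108). The groups did not overlap for any of the 4.

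The other 6 members passed no threshold at day 16. Olig2 was at 3.81 and 4.20 CPM in flox and 2.90 and 3.17 CPM in KI (-0.37, SE 0.16, edgeR adjusted p 0.0799, alternatives 0.0752 to 0.234), where KI had been the higher at day 8. Dbx1 was down to 0.493 and 0.895 CPM in flox and 0.130 and 0.281 CPM in KI (-1.64, SE 0.76, edgeR adjusted p 0.118), and was called by DESeq2 (0.0208) and in a fit of the 4 day 16 libraries alone (0.00761). Pax7 (0.20), Pax6 (-0.24), Irx3 (0.22) and Nkx6-2 (-0.06) were within 0.3 of no change on the log2 scale, but on its coding transcript Nkx6-2 was higher in KI and called (0.64, edgeR adjusted p 0.0483). Without flox replicate 2, Pax6 (-0.40, edgeR adjusted p 0.0156) and Irx3 (0.29, 0.0417) were called as well.

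Signals and other pathway genes at day 16 were tested with the same fit. Shh was higher in KI (0.72, edgeR adjusted p 0.00331), as at day 8, and Wnt3a (-3.98, 1.12e-06), Bmp7 (-1.29, 3.79e-06), Gdf7 (-0.93, 0.00426) and Bmp4 (-0.87, 0.000746) were lower. Wnt1 was not called (-0.29, 0.399). Of the 6 Hedgehog pathway genes 4 were lower, Smo (-1.22, edgeR adjusted p 8.73e-07), Gli1 (-1.05, 0.0107), Gli3 (-0.96, 9.03e-06) and Gli2 (-0.79, 0.00121). Ptch1 (-0.07) and Hhip (0.43) were not called. Gli2 and Gli3 had been higher in KI progenitors. Retinoic acid genes fell in KI for 5 of 6, Aldh1a2 at 1.32 against 54.8 CPM (-5.35, edgeR adjusted p 7.91e-10), Cyp26b1 (-3.39, 1.76e-07), Cyp26a1 (-1.47, 7.27e-05), Crabp2 (-0.54, 0.0241) and Rarb (-0.53, 0.00097), with Cyp26c1 near the floor in both.

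Among the larger lists at day 16, floor plate and roof plate genes split 3 higher and 3 lower of 8. Foxa2 (2.29, edgeR adjusted p 0.0047) and Foxj1 (1.66, 6.66e-06) led the higher and Rspo1 (-2.74, 6.07e-08) and Lmx1a (-2.42, 0.000385) the lower. Other progenitor factors were called lower for 10 of 19, Neurog2 (-2.63, edgeR adjusted p 1.9e-05) and Msx2 (-2.52, 9.02e-06) among them, and higher for 1, Sp8 (2.48, 3.26e-05). Of 20 postmitotic factors tested 7 were higher, Pou4f1 (1.35, edgeR adjusted p 6.49e-06) among them, and 1 lower, Lhx5 (-0.57, 0.0038). All 12 neuronal markers were called higher in KI, summing to 9266 to 10280 CPM against 5557 to 5770 CPM, and 7 of 10 mesenchyme markers lower (34.9 to 39.8 CPM against 78.5 to 87.1 CPM). Extraembryonic endoderm markers summed to 13.5 to 25.4 CPM in KI against 81.03 to 81.2 CPM. Pancreatic and foregut (28.6 to 30.7 CPM against 41.7 to 43.8 CPM), pluripotency (21.03 to 29.1 CPM against 46.2 to 48.1 CPM) and trophoblast markers (4.24 to 4.89 CPM against 12.2 to 14.4 CPM) were lower in sum too, and eye markers higher (9.02 to 9.11 CPM against 3.57 to 3.88 CPM). The part of these shifts in the members' levels was not tested.

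Between day 8 and day 16, 8 of the 10 members fell in KI and 7 in flox, apart from Nkx2-2, whose flox reads were all at or under the floor. In flox 9 of 10 members were called, Nkx2-2 counted, where 77.1% of all genes were called (38.4% higher and 38.7% lower), and in KI all 10, where 79.9% were (40.7% higher and 39.2% lower). Most genes differed between progenitors and neurons, so the count of members is close to the background. The members were picked partly by their levels in day 8 cultures, which favours a fall from that day, so nothing is read from the direction, and the adjusted p-values of falls below are not independent of that choice. Pax7 fell by 7.59 in flox (SE 0.22, edgeR adjusted p 2.54e-11) and by 7.69 in KI (SE 0.22, 8.35e-12) on the log2 scale, to 0.244 to 0.321 CPM in all 4 neuron libraries. Dbx1 fell by 6.46 (SE 0.42, edgeR adjusted p 2.16e-06) and by 5.17 (SE 0.53, 3.31e-05).

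Pax6, Irx3 and Msx1 fell in both genotypes and stayed well above the floor, and whether a fall differed between genotypes was not tested. Pax6 fell by 3.78 in flox and 3.76 in KI, to 8.19 to 11.4 CPM, and Irx3 by 3.71 and 3.61, to 17.7 to 21.5 CPM. Msx1 fell by 3.83 and 4.22. Nkx6-1 fell by 1.07 (SE 0.23, edgeR adjusted p 0.000862) and 0.89 (SE 0.20, 0.00136). All of these held under each alternative.

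Dbx2, Olig2 and Nkx6-2 behaved unlike the rest. Dbx2 fell by 2.22 in flox (SE 0.27, edgeR adjusted p 1.01e-05) but rose by 1.76 in KI (SE 0.25, 3.67e-05). Olig2 rose in flox, from 0.851 ± 0.01 to 4.01 ± 0.28 CPM (SD, n = 2 each; 2.09, SE 0.18, edgeR adjusted p 4.44e-07), while in KI it went from 3.70 ± 0.25 to 3.04 ± 0.19 CPM (-0.40, SE 0.16, 0.0347). That KI call was lost with clone as a block (9 members called; Olig2 -0.44, 0.0531), in DESeq2 (0.1), in a fit of the KI libraries alone (0.0537) and without clone 27 at day 8 (0.145) or day 16 (0.117). Nkx6-2 rose by 0.57 in KI (SE 0.15, edgeR adjusted p 0.0035) and was not called in flox (0.05, 0.747), where the sign depended on the transcript used.

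Nkx2-2 fell by 2.70 in KI (SE 0.31, edgeR adjusted p 7.62e-06). In flox it had 2 and 3 reads at day 8 and 0 at day 16, all at or under the floor, so a fall in flox could not be measured. It passed the filter on low counts through the KI libraries of the same fit. Its call there (edgeR adjusted p 0.0465, alternatives 0.0194 to 0.155) was lost without any 1 of the 4 flox libraries, and nothing is read from it. With the number in the flox titles as a block, 8 flox members were called. Between the genotypes these 2 comparisons share no library.

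**Figure D4:**
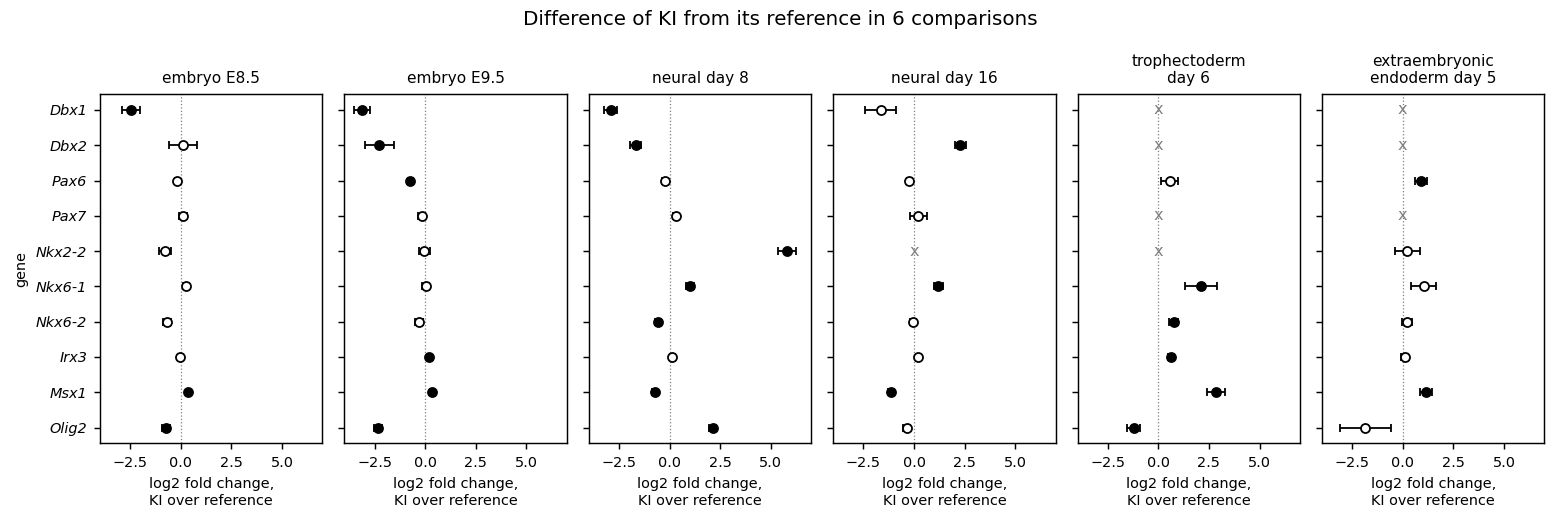
Log2 fold change of KI over flox or control for each member in 6 comparisons (1 panel each), with bars of 1 SE, filled points for genes called at an adjusted p under 0.05, open points for those not called, and crosses for members not tested or with 0 reads in the reference. Dbx1 lies at -2.45 to -3.14 in both embryo stages and in progenitors, while Olig2 lies at -2.34 in E9.5 embryos and 2.13 in progenitors.

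The members were also read outside the neural tube. In trophectoderm-like cells 7 of 10 passed the filter on low counts and 6 of them were called, 5 higher and 1 lower in KI, where 50.9% of all genes were called (26.7% higher and 24.2% lower). Msx1 stood at 2.38 and 1.78 CPM in flox and 11.2 and 18.6 CPM in KI (2.86, SE 0.43, edgeR adjusted p 0.00278, alternatives 1.99e-11 to 0.0252). Olig2 stood at 7.13 and 6.37 CPM against 2.47 and 3.24 CPM (-1.23, SE 0.30, edgeR adjusted p 0.0038, alternatives 0.000859 to 0.0374). Both held in each alternative run.

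The other 4 calls in these cells were less firm. Irx3 rose in KI from 27.3 and 27.5 to 48.4 and 35.4 CPM (0.62, SE 0.15, edgeR adjusted p 0.00379) and was lost without clone 27 (0.0575). Nkx6-2 (0.75, SE 0.24, edgeR adjusted p 0.0163) was lost without flox replicate 2 (0.164), without clone 27 (0.0749) or on its coding transcript (0.119). Nkx6-1 (2.09, SE 0.79, edgeR adjusted p 0.0427) was lost without flox replicate 1 (0.187), without clone 48 (0.162), with transcripts summed (0.0655) and in a fit of these libraries alone (0.0701). Nkx2-2 had 0 reads in both flox libraries and 2 and 10 in KI clones 27 and 48. Clone 27 was itself under the floor of 3 reads, so a mean at least 1.84-fold above the floor rests on clone 48. The gene passed the filter through its reads in the endoderm-like cells of the same fit and was not tested in a fit of these libraries alone. Its call (edgeR adjusted p 0.0191) was lost without either flox library or without clone 48 (0.074 to 0.154). Without flox replicate 1, flox replicate 2 or clone 27, 4 members were called. Trophoblast markers summed to 5030 to 5291 CPM in KI against 2934 to 2999 CPM in flox, with 6 of 7 higher. The other, Elf5, was called lower, at 1.20 against 16.9 CPM (log2 fold change -3.79). Most of the sum was Krt8 and Krt18, and Cdx2, among the higher markers, is also the factor induced in these cells. All 6 pluripotency markers were lower in KI (310 to 400 CPM against 757 to 769 CPM). Of the 2 members highest in ES cells, Olig2 was lower and Nkx6-2 higher, as given above. Mesenchyme markers summed to 106 to 108 CPM against 53.2 to 54.8 CPM, neuronal markers to 41.2 to 46.01 CPM against 132 to 135 CPM and pan-neural markers to 235 to 303 CPM against 512 to 514 CPM. Most of each difference came from 1 gene. By group means in KI against flox these were Msx2 (79.1 against 26.6 CPM), Stmn2 (11.4 against 82.2 CPM) and Sox2 (32.2 against 259 CPM). Some markers lay the other way from their sum. Among them were Prrx2 (3.515 against 16.5 CPM), Nefl (5.84 against 2.88 CPM) and Nefm (2.803 against 1.314 CPM). These 3 sums are therefore not read as shifts of cell types. The part of all these marker differences in the calls was not tested.

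In extraembryonic endoderm-like cells 7 of 10 members were tested, Olig2 (0 to 2 reads) only through its trophectoderm reads in the same fit, and 2 were called, both higher in KI, where 35.5% of all genes were called (18.1% higher and 17.4% lower). Msx1 stood at 37.3 and 33.5 CPM in flox and 60.3 and 96.3 CPM in KI (1.15, SE 0.31, edgeR adjusted p 0.0345), and Pax6 at 5.32 and 4.83 CPM against 7.82 and 11.1 CPM (0.90, SE 0.31, edgeR adjusted p 0.0344). Groups did not overlap, but neither call was kept without 1 of the flox libraries (0 members called; adjusted p 0.115 to 0.185). Without clone 48, Pax6 was lost (0.241) and 1 member was called. Nkx6-1, at 1.19 and 2.05 CPM against 3.60 and 2.96 CPM, was not called (1.02, SE 0.61, edgeR adjusted p 0.221). In a fit of these libraries alone it was called (0.0452). The endoderm marker sums of KI and flox did not overlap, as given above. Summed mesenchyme markers (222 to 277 CPM against 190 to 193 CPM) were higher in KI. So were trophoblast (3849 to 4503 CPM against 3163 to 3172 CPM) and eye markers (11.6 to 13.2 CPM against 9.80 to 9.97 CPM). Pan-neural (1179 to 1742 CPM against 2039 to 2098 CPM) and pluripotency sums (102 to 107 CPM against 123 to 137 CPM) were lower. Neural crest (214 to 224 CPM against 238.6 to 242.5 CPM) and neuronal sums (114 to 129 CPM against 177.7 to 178 CPM) were too. Of the neuronal markers, Tubb3, Dcx and Elavl4 were called lower, and Map2, Elavl3, Nefl, Gap43 and Stmn2 higher. Of the pan-neural markers, Sox2 and Sox3 were called lower and Pax6 higher, and Vim (990 against 1658 CPM) was not called. The part of these shifts in the 2 calls was not tested.

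ES cells and embryoid bodies had 1 flox library per day, so genotype was tested over the 3 days together. The libraries of 1 KI clone deviated together across days (correlations 0.15 to 0.39), and flox was a single series, so the fit treats as independent libraries that are not, its p-values may be too small, and clone could not be added as a block. None of the 8 members tested was called by edgeR, where 0.73% of all genes were (121 of 16567), and none by DESeq2, which called 778 genes. At an unadjusted p under 0.05 edgeR had 2720 genes and, of the members, Nkx6-2 (-0.44, SE 0.16, edgeR p 0.0247) and Irx3 (-0.996, SE 0.30, edgeR p 0.0112). On single days, without a test, both KI clones differed from the flox library by 2-fold or more (0.5 CPM added) in 3 cases. In ES cells, Pax6 was at 1.53 and 1.63 CPM in KI against 0.185 CPM, and Olig2 at 17.98 and 22.0 CPM against 54.7 CPM. At day 4, Msx1 was at 33.3 and 34.1 CPM against 84.4 CPM.

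Within the KI clones, 4 of 7 members tested changed between day 4 and day 10 of embryoid bodies, where 73.3% of all genes were called (36.7% higher and 36.6% lower). Olig2 fell from 13.1 and 15.2 CPM to 0.359 and 0.250 CPM (-5.58, SE 0.26, edgeR adjusted p 2.6e-06, alternatives 1.01e-31 to 0.000199). Nkx2-2 fell from 28 and 24 reads (1.31 and 1.12 CPM) to 1 and 3 reads, at or under the floor. That is a day 10 to day 4 ratio of 0.0756 with a counting interval of 0.0199 to 0.206 (exact binomial, 95%). The gene passed the filter on low counts only through its day 4 libraries, where it is high, so nothing is read from its call (edgeR adjusted p 0.00373). Irx3 rose from 4.13 and 5.93 CPM to 22.9 and 12.8 CPM (1.78, SE 0.32, edgeR adjusted p 0.0016). Pax6 fell by 1.38 (SE 0.43, edgeR adjusted p 0.0197) and was lost without either clone at day 4 (0.0594 and 0.12). With clone as a block 5 members were called, Msx1 (-0.83, edgeR adjusted p 0.0278) being added. In the single flox libraries Olig2 went the same way, from 11.9 to 0.346 CPM, and Irx3 from 10.8 to 42.7 CPM, with no test. In the KI clones, pluripotency markers summed to 1297 to 1356 CPM at day 4 and 146 to 189 CPM at day 10. Extraembryonic endoderm markers went from 106 to 114 CPM up to 1219 to 1409 CPM. Heart, blood and mesenchyme sums were also higher at day 10, and the neuronal sum lower. The part of these shifts in the members' changes was not tested.

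Across the 18 group means, on log2 of CPM plus 0.5, the genes most like each member were read off 16595 genes as a description. These groups share libraries' preparation and stage, so the values are not independent. Dbx1 was most like Olig3 (Pearson r 0.94), a dorsal progenitor factor, and Pax7 most like Neurog2 (0.98) and Olig3 (0.98). Pax6 was most like Lhx5 (0.95) and Pax3 (0.94), Nkx6-1 like Shh (0.92), and Irx3 like Phc2 (0.94) and Col2a1 (0.93). Nkx2-2 and Msx1 were most like their antisense transcripts Nkx2-2os (0.96) and Msx1os (0.999), which may share reads with them, as the counting is not stated to use strand. Dbx2 was most like Crym (0.83), Nkx6-2 like Slfn9 (0.90) and Olig2 like Mrpl42 (0.92). Among the members themselves, Dbx1 and Pax7 were most alike (0.91) and Irx3 and Olig2 least (-0.36).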

How the data were processed

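Poly(A)-selected RNA was sequenced per the labels' protocols (NEBNext kit). The files were on build mm9 per the submitters' processing notes, which name STAR, Bowtie2, bcl2fastq and SICER 1.1 with no role. The counter, annotation and strand setting are not given in the sources used here. Per the file headers, each deposited table holds a read count and RPKM for 29082 transcripts. The count over the RPKM gave 1 length per transcript and 1 total per library, checked to a deviation of 9.4e-12.

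Accessions were matched to RefSeq symbols (28436 matched, 646 not), and each gene took its transcript with most reads over the 37 libraries, which kept a median of 71.8% of reads. Levels are CPM on TMM-scaled totals over all 37 libraries. Tests used edgeR 4.0.16 (R 4.3.3) on counts: filterByExpr with a minimum count of 10, TMM, robust quasi-likelihood fits with 1 coefficient per group within each set of libraries (neural, embryo, trophectoderm with endoderm, and embryoid body with day as a factor), and Benjamini-Hochberg adjustment over all genes tested. The SE is the absolute log2 fold change over the square root of F.

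Alternatives were DESeq2 1.42.0, no filter, summed transcripts, fits of the compared libraries alone, each replicate left out and a replicate block. The members and lists were chosen with earlier results of these data known. All members are named, every gene of lists of up to 6 genes, and otherwise the 2 called genes of largest fold per direction, in the genotype comparisons of embryos and neural cultures only, leaving out fitted folds of genes with few reads (Lhx4 at E9.5, Nkx2-9 at day 16). A few other list genes were named after their values were seen (Ntn1 at day 8). Replicate pairs all differed by more than sampling noise (chi-square per degree of freedom 1.5 to 54.8 over 23 pairs), so none was merged. Same-numbered E8.5 embryos deviated together (correlations 0.15 to 0.35 over 14830 genes), as did libraries of 1 KI clone, so the numbers pair those samples. What the embryo numbers mean is not stated. Some genes of the pathway lists count in the totals but are not reported here by name.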

Additional observations from a re-analysis of the deposited data

Results flagged for a closer look

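The effect of KI on Nkx2-2 differed between trophectoderm-like and extraembryonic endoderm-like cells by 5.15 on the log2 scale (SE 1.89, edgeR adjusted p 0.0494 for the difference). It rests on 0 reads in both flox trophectoderm libraries against 2 and 10 in KI, with 1.24 and 1.36 CPM in flox and 1.50 and 1.53 CPM in KI endoderm, so the size depends on the prior count and is no measured fold. The gene passed the filter on low counts through its endoderm reads, and its call in trophectoderm-like cells was lost without either flox library or without clone 48, so no difference between the kinds of cell is read from this value. Of the other 6 members in this fit, none passed (Msx1 1.71, edgeR adjusted p 0.0602). Olig2, with 0 to 2 reads in the endoderm-like libraries, could not be compared.

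In the neural cultures, 2 members changed sides between the days in every library. On log2 ratios of group means with 0.5 CPM added, the difference of KI from flox at day 16 minus that at day 8 was 2.24 for Dbx2 and -1.99 for Olig2. The difference between the days was not tested.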

How the results depend on the processing

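Of the counts of members called, 1 moved by over 1.5 times apart from leaving out libraries: without the filter on low counts, 1 member was called in extraembryonic endoderm-like cells (2 with it). Leaving out each replicate in turn gave 1 to 3 members at E8.5 (3 with all), 3 to 5 for stage in controls (5), 2 to 5 for stage in KI (5) and 0 to 2 in endoderm-like cells (2). With the replicate block 4 members and 1350 genes were called at E8.5 (3 and 843 without it), 8 for day in flox neural cultures (9), 9 for day in KI neural cultures (10) and 5 for day in KI embryoid bodies (4). At E9.5 it called 6, as many as without it, and the same-numbered embryos there did not all deviate together.

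Signs turned only for changes that edgeR did not call. The log2 fold change of Nkx6-2 between genotypes at day 16 was 0.041 with transcripts summed and 0.64 (edgeR adjusted p 0.0483) on the coding transcript, a choice made after seeing the data, and ran from -0.15 to 0.040 over replicates left out. Between days in flox it was -0.13 and -0.83 (edgeR adjusted p 0.00748) under the same 2 settings and ran from -0.0040 to 0.11. In endoderm-like cells it was -0.23 on the coding transcript, and Irx3 ran from -0.11 to 0.28. In the embryoid body course, Nkx6-1 was -0.24 and Olig2 0.095 without the ES cell libraries, also chosen after seeing the data, and they ran from -0.33 to 1.06 and from -1.22 to 0.12 with libraries left out. Nkx6-1 between days in KI embryoid bodies ran from -0.013 to 0.72. Between genotypes at E8.5, with embryos left out, Dbx2 ran from -0.45 to 0.46 and Irx3 from -0.11 to 0.02. At E9.5 Nkx6-1 ran from -0.12 to 0.17 and Nkx2-2 from -0.16 to 0.13.

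Over all genes, calls fell to 1896 to 2362 at neural day 8 (3202), 363 to 755 at E8.5 (843) and 3641 to 4967 in endoderm-like cells (5520) with 1 library left out, where fewer samples enter, and the embryoid body course ranged over 26 to 332 (121) and gave 778 in DESeq2. The cause was not tested. Without TMM scaling, 28 group levels moved by more than the spread between replicates and 152 did not. With a pseudocount of 2 CPM, 17 of the 30 most alike genes were shared. Where leaving out a library left 1 in its group, that library was taken to vary like the others. Groups of 1 to 3 libraries, and a floor of 3 reads, limit what could be seen of Dbx2 and Nkx2-2.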
